A study of Sus scrofa domesticus with 4 samples.

Results

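The genes described here encode the proteins of the cytosolic ribosome in porcine endometrium, the lining of the uterus. Probes were chosen by name: a probe belongs if its RefSeq accession gives a symbol of RPL or RPS followed by a number, or RPLP0, RPLP1, RPLP2 or RPSA. The S6 kinases and genes named only as like a ribosomal protein were left out. On the array 179 probes of 34 such genes were found, 18 of the large ribosomal subunit and 16 of the small one, and 178 of these probes were bright enough to be tested. They are 34 of the 1637 named genes and 178 of the 13783 probes tested on the whole array. The RefSeq table lists 76 symbols that meet the naming rule, so the rest, among them RPLP1, RPS6 and RPS27A, have no probe named here.

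The tissue came from 4 mature gilts (Large White x Polish Landrace, 7 to 8 months old, 120 to 130 kg) on days 15 to 16 of gestation, when conceptuses were present in the uterus. Slices from the middle of the uterine horns were cultured as explants, for 2 h alone and then for 24 h either with 10 nM orexin B, a hypothalamic neuropeptide, or with no treatment. Each of 4 two-colour arrays carried RNA from treated explants in one dye and from untreated explants in the other. The treated RNA was in the red dye Cy5 on arrays 1 and 3 and in the green dye Cy3 on arrays 2 and 4, per the dye label of each array. All groups are explants in medium, so no tissue outside culture enters any comparison. The explants hold every cell type of the endometrium, the cultures were run in duplicate, and the labels tie no animal to an array. The p-values rest on the spread of these 4 arrays within each dye orientation, with part of the variance taken from all tested probes. Whether they reflect the spread between animals cannot be told. The question was how orexin B alters gene expression in this tissue.

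The eukaryotic ribosome has a small subunit, which reads the messenger RNA, and a large subunit, which joins the amino acids. Most of its proteins are needed in equal number, and the genes of ribosomal proteins are expressed in every cell at high levels. Most of their mRNAs start with a 5′ terminal oligopyrimidine tract, through which the kinase mTOR sets how much of them is translated. That control acts on translation, which an array of mRNA levels does not measure. Endometrium at the time of attachment secretes large amounts of protein towards the conceptus, and orexin receptors are coupled to G proteins.

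All values are log2 ratios of treated over untreated RNA, so that 0 means equal levels and 1 means 2-fold more in treated explants. Each gene is represented by its brightest probe unless all probes are named. The ± after a ratio is the standard error of limma, a linear model in which the probes share part of their variance, with the dye effect taken out. The share of spots well above background was 82.4% to 86.7% in Cy5 on arrays 1, 3 and 4, 46.8% in Cy5 on array 2, the only array of its scan day, and 27.8% to 36.2% in Cy3. All 178 ribosomal protein probes were above background in every channel, and none was saturated. The genes lay at a median brightness percentile of 98.3 among the tested probes (87.7 to 99.9). Of the uterine marker genes PGR, ESR1, WT1, ACP5, SPP1 and STC1 were well above background.

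Ribosomal protein mRNAs had ratios close to 0 between treated and untreated explants, and no gene passed the test. The fitted ratio of the 34 genes had a median of 0.09, or 1.07-fold, with a range from -0.08 to 0.33. A higher ratio in treated explants was found for 27 of the 34 genes and a lower one for 7, where 43.9% of all named genes had a higher ratio. Over probes, 125 of the 178 (70.2%) were higher, where 53.1% of all tested probes were. The median over all tested probes was 0.02. With median centring in place of loess normalisation, all 34 genes lay above 0 with their median at 0.54, and the tested probes as a whole had a median of 0.28.

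By limma with Benjamini-Hochberg adjustment over all tested probes, 0 of the 34 genes and 0 of the 178 probes were called, as were 0 of all 13783 probes (0%). The smallest adjusted p among the members was 0.999. At an unadjusted limma p under 0.05 there were 0 of the 34 genes and 1 of the 178 probes (0.562%), against 3.60% of all tested probes. In every other setting of the processing the number of ribosomal protein genes called was also 0. With median centring, members did pass the unadjusted threshold, in a larger share than all tested probes, and the counts are given at the end.

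The intervals show what sizes of change the 4 arrays still allow after loess normalisation. They do not cover the choice of normalisation, and with median centring the ratios of these genes were larger, as given above. The 95% interval of all 34 genes lay inside a 2-fold change in either direction, as it did for 91.9% of all tested probes. For 22 of the 34 genes it lay inside a 1.5-fold change, as for 42.6% of all tested probes. The lowest bound was -0.74 and the highest 0.82, both of RPL7. The ratios were also close together: their SD over the 34 genes was 0.11, against 0.24 over all tested probes and 0.29 over the 1213 other probes of the brightest 10%. In those bright probes the median was 0.01, and 51.8% were higher.

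**Figure D1:**
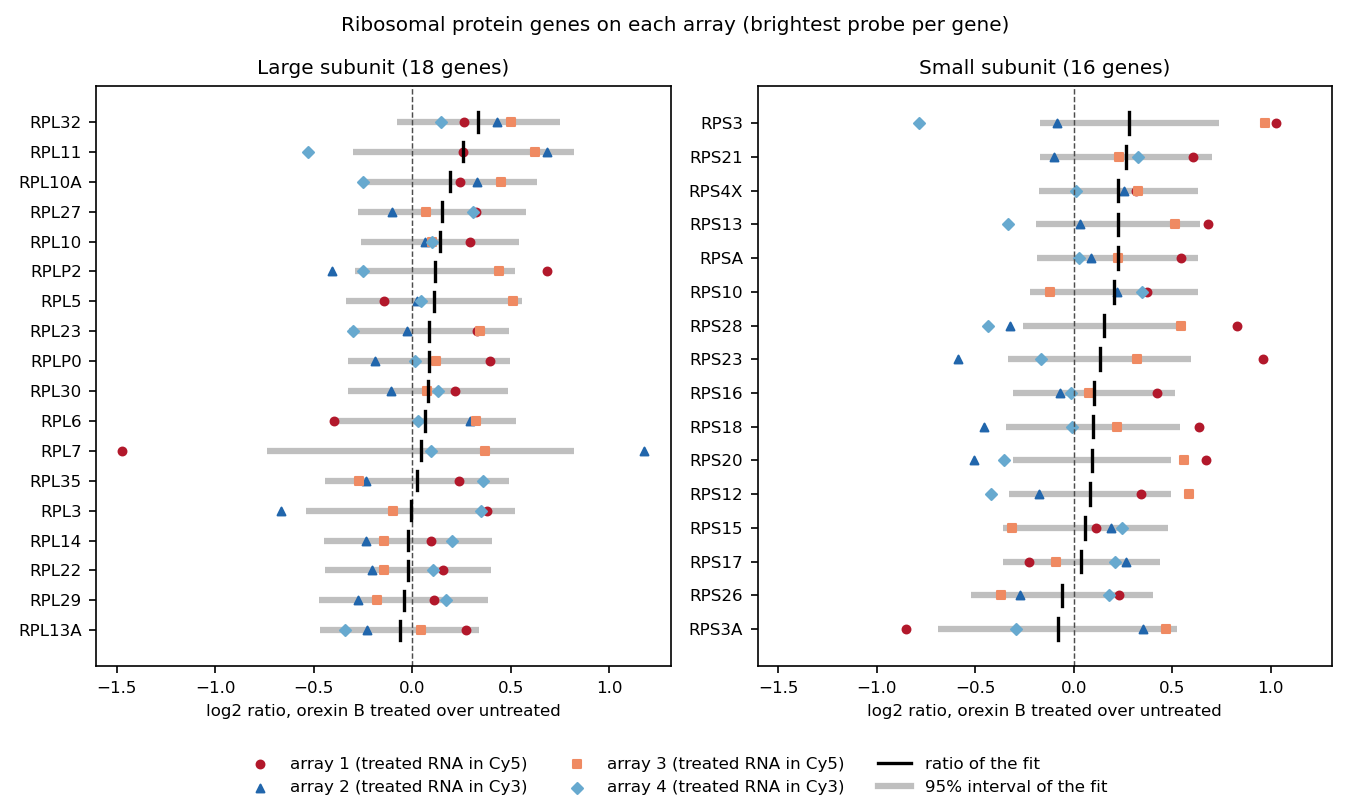
Log2 ratios of treated over untreated RNA (horizontal axis) for the 18 large-subunit genes (left) and the 16 small-subunit genes (right). Coloured points are the 4 arrays, black ticks the fitted ratio and grey bars its 95% interval. All 34 grey bars cross 0, and for most genes the 4 points lie on both sides of 0.

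The small shift was not the same on every array. The median of the 34 genes was 0.31 on array 1, -0.09 on array 2, 0.23 on array 3 and 0.03 on array 4, with an SD over the arrays of 0.18. On those arrays 29, 14, 25 and 20 of the 34 genes were higher in treated RNA. The medians of all tested probes were -0.03, 0.06, 0.01 and 0.02. By their brightest probes the members were thus highest on the arrays with treated RNA in Cy5 and near or below 0 on those with treated RNA in Cy3. Over all 178 probes the medians were 0.14, 0.12, 0.20 and 0.07, above 0 on every array. The means of all probes per gene had medians of 0.25, 0.01, 0.09 and 0.10, so this order of arrays depends on the choice of probe.

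Averaged by dye, the median of the members was 0.22 with treated RNA in Cy5 (25 of 34 higher) and -0.0031 with treated RNA in Cy3 (17 of 34 higher). There were 11 genes higher under both dye orientations and 3 lower under both. Another 14 were higher only with treated RNA in Cy5 and 6 only with treated RNA in Cy3. The same counts by orientation were not made for all named genes, so they are not read as particular to the members. On 4 of 4 arrays the ratio had the same sign for 4 of the 34 genes, each time above 0, against 8.74% of all named genes with the same sign in either direction. Over all 178 probes 13 kept 1 sign on 4 arrays (7.30%).

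**Figure D2:**
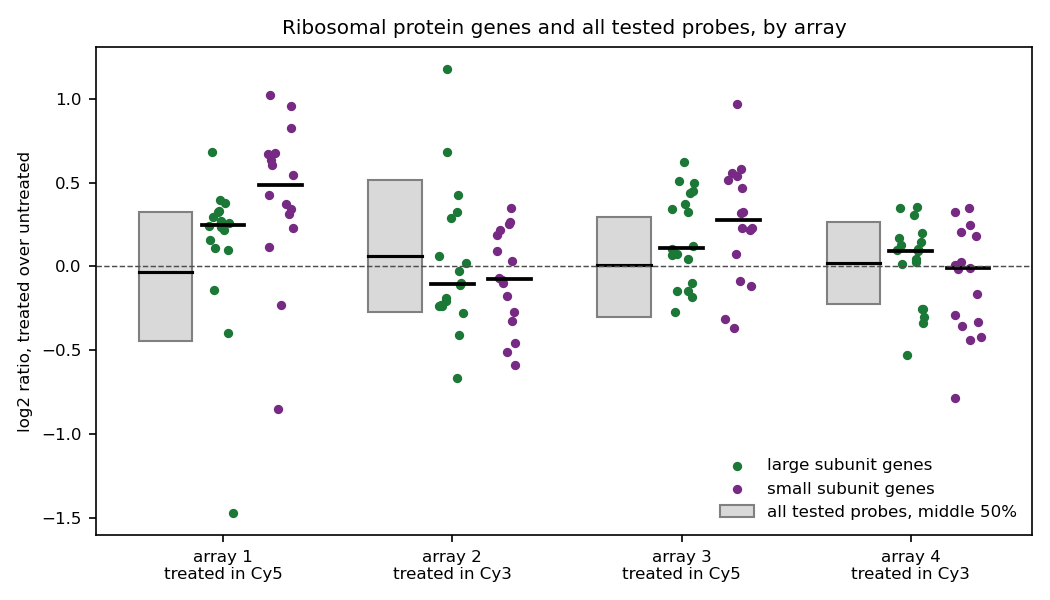
Log2 ratio of treated over untreated RNA (vertical axis) on each array for large-subunit genes (green points) and small-subunit genes (purple points), with their medians as black lines. Grey boxes span the middle 50% of all tested probes, with their median. Small-subunit genes have medians of 0.49 and 0.28 on arrays 1 and 3, and of -0.08 and -0.01 on arrays 2 and 4.

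Both subunits were close to 0. The 18 large-subunit genes had a median fitted ratio of 0.08, with 13 higher, and the 16 small-subunit genes 0.12, with 14 higher. With the scanner software's own ratio the large-subunit median was 0.025 and the small-subunit median 0.11. On arrays 1 to 4 the medians of the large subunit were 0.25, -0.10, 0.11 and 0.09. Those of the small subunit were 0.49, -0.08, 0.28 and -0.01, so by brightest probes the small subunit moved further with the dye orientation. Medians by subunit and array were not made over all probes. The difference between the subunits was not tested.

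The 4 genes that were higher on every array were RPL32, RPS4X, RPSA and RPL10. RPL32, a protein of the large subunit, had the highest ratio and the smallest p of the 34 genes. It stood at 0.26, 0.43, 0.50 and 0.14 on arrays 1 to 4. The fitted ratio was 0.33 ± 0.18 (n = 4 arrays, adjusted p = 0.999 by limma), or 1.26-fold, with a 95% interval from 0.946-fold to 1.68-fold. All 4 arrays were above 0, and the interval still includes no change. Of its 7 probes, 6 were higher and 1 lower, between -0.11 and 0.40. With the scanner software's own ratio, or the authors' deposited table, RPL32 stood at 0.094, below RPS3 (0.30), RPS4X (0.29) and RPSA (0.26) with the scanner software's ratio.

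RPS4X, the X-linked form of a small-subunit protein, stood at 0.32, 0.25, 0.32 and 0.01. Its fitted ratio was 0.23 ± 0.17, and all 14 of its probes had a fitted ratio above 0, from 0.06 to 0.49. The probe at 0.49 was the only 1 of the 178 with an unadjusted limma p under 0.05. Its 14 probes were all above 0 on array 2 as well, whereas 5, 3 and 2 of them were below 0 on arrays 1, 3 and 4. RPSA, a small-subunit protein also known as a cell surface receptor for laminin, stood at 0.55, 0.09, 0.23 and 0.03, with a fitted ratio of 0.22 ± 0.17 and 4 of 6 probes higher. RPL10, which is built into the large subunit late in its assembly and lies near the catalytic centre, stood at 0.29, 0.06, 0.10 and 0.10, with a fitted ratio of 0.14 ± 0.17. Only 2 of its 5 probes were higher, so the sign seen on its brightest probe was not that of most of its probes.

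Other genes at the upper end had a high value in some arrays and a low one in others. RPS3, which lies at the mRNA entry of the small subunit and also acts in DNA repair, stood at 1.03, -0.08, 0.97 and -0.79. Its fitted ratio of 0.28 ± 0.19 was the second highest, and its 4 arrays spanned the widest range of the small subunit. RPL11, which with RPL5 carries the 5S ribosomal RNA and binds the p53 regulator MDM2, stood at 0.26, 0.68, 0.62 and -0.53, for a fitted ratio of 0.26 ± 0.24. RPS21, another protein of the small subunit, stood at 0.61, -0.10, 0.23 and 0.32, for a fitted ratio of 0.27 ± 0.18.

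RPS13, RPS10 and RPL10A were each higher on 3 of 4 arrays. RPS13, a small-subunit protein with 1 probe here, stood at 0.68, 0.03, 0.51 and -0.33 (fitted 0.22 ± 0.18). RPS10, which lines the mRNA path and is ubiquitinated on stalled ribosomes, stood at 0.37, 0.22, -0.12 and 0.35 (fitted 0.20 ± 0.18). RPL10A, the protein of the mobile L1 stalk, stood at 0.24, 0.33, 0.45 and -0.25 (fitted 0.19 ± 0.19). The low array was array 4 for RPS13 and RPL10A and array 3 for RPS10. A sixth RPS10 probe on the array was above background in 4 Cy5 and 2 Cy3 channels and was not tested.

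The acidic stalk of the large subunit, made of RPLP0, RPLP1 and RPLP2, recruits the elongation factors. RPLP0, its anchor, stood at 0.40, -0.19, 0.12 and 0.01, with a fitted ratio of 0.09 ± 0.17 and 11 of 13 probes higher. RPLP2 stood at 0.68, -0.41, 0.44 and -0.25, for a fitted ratio of 0.12 ± 0.17. The 2 Cy5 arrays of RPLP2 lay above its 2 Cy3 arrays without overlap.

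At the lower end the ratios were within their error of 0. RPS3A, a small-subunit protein, had the lowest ratio, -0.08 ± 0.26, from -0.85, 0.35, 0.47 and -0.29. RPL13A, known for leaving the ribosome to silence inflammatory mRNAs after interferon-gamma and used as a reference gene, stood at 0.27, -0.23, 0.05 and -0.34 (fitted -0.06 ± 0.17). These 2 were also the only genes with 2 or more probes whose probes were all lower, 8 of 8 for RPS3A and 2 of 2 for RPL13A. RPS26, at the mRNA exit of the small subunit, stood at 0.23, -0.27, -0.37 and 0.18 (fitted -0.06 ± 0.20). The large-subunit proteins RPL29 (0.11, -0.28, -0.18 and 0.17; fitted -0.04 ± 0.18) and RPL14 (0.10, -0.23, -0.15 and 0.20; fitted -0.02 ± 0.18) had the same order of arrays, low on 2 and 3 and high on 1 and 4.

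The dye term of the fit, which is the part of a ratio that goes with Cy5 over Cy3 and not with treatment, was as large as the treatment term for many of these genes. It had a median of 0.12 over the 34 genes, with 25 above 0, and ranged from -0.59 for RPL7 to 0.72 for RPS3. Over all 178 probes its median was 0.02, with 94 above 0 and 84 below, so this lean towards Cy5 was seen on the brightest probes and not over all probes. It was larger in size than the treatment ratio in 20 of the 34 genes, and in 64.1% of all named genes. At an unadjusted limma p under 0.05 there were 5 genes with a dye term, RPS3, RPS28, RPS20, RPLP2 and RPS23, or 14.7% against 14.6% of all named genes. None passed after adjustment (smallest adjusted p = 0.290).

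RPS20, a small-subunit protein next to RPS3 and RPS10, shows such a pattern after normalisation. Its raw spot signal, before any correction, was 473843 in Cy5 and 35648 in Cy3 on array 1, and 400207 and 106251 on array 2. This raw excess of red was not particular to RPS20. In raw log2 of Cy5 over Cy3 it stood at 3.73 and 1.91 on these arrays, where the members had medians of 3.12 and 1.29. After normalisation RPS20 stood at 0.67 and 0.56 on arrays 1 and 3, where treated RNA was red, and at -0.51 and -0.36 on arrays 2 and 4, where it was green. The sign turned with the dye, and the fitted treatment ratio was 0.09 ± 0.17. All 7 of its probes were above 0 on arrays 1 and 3, and all 7 were below 0 on array 4. On array 2, 5 of them were below 0 and 2 above, from -0.51 to 1.27. RPS28 (0.83, -0.32, 0.54 and -0.44) and RPS23 (0.96, -0.59, 0.32 and -0.17), both of the small subunit, had the same order of dyes on their brightest probes. Not all of their probes did: 1 of 3 RPS28 probes stood at -0.24, 0.24, -0.44 and 0.23, and 1 of 4 RPS23 probes at 0.38, -0.22, -0.30 and 0.23.

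Before normalisation the red signal of these genes far exceeded the green one. The median of the raw log2 of Cy5 over Cy3 was 3.12, 1.29, 3.19 and 1.51 on arrays 1 to 4. The treated RNA was red on arrays 1 and 3, where this excess was largest. Loess normalisation fits the excess from probes of like brightness and removes it, and median centring removes 1 value for all probes of an array. The median of the members was 0.09 after loess and 0.54 after median centring, so its size rests on that choice.

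Probes of 1 gene are joined by its name, and their positions on the mRNA were not known. They are not replicates of the treatment, but they show which array values the probes of a gene share. Of the 29 genes with 2 or more probes, 20 had fitted ratios of both signs, 7 had all probes higher and 2 had all lower. The SD of fitted ratios between probes of a gene was 0.12, and that between the means of genes was 0.09. A mean over several probes varies less than a single probe, so the 2 values are not compared directly. The widest range between the probes of a gene was 0.53, for RPL14, whose 5 probes ran from -0.13 to 0.40. Using the mean of all probes of a gene in place of the brightest, the median of the 34 genes was 0.07, with 27 higher.

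In some genes all probes lay on 1 side of 0 on an array. This held for 14, 13, 6 and 7 of the 29 genes on arrays 1 to 4, and 3 genes with many probes show it on arrays 1 and 2. RPL7, a large-subunit protein, stood between -1.81 and -0.87 on array 1 in all 14 of its probes, and between 0.85 and 1.77 on array 2 in all 14. On array 3 its probes ran from -0.25 to 0.59 and on array 4 from -0.22 to 0.52, so the fitted ratio of its brightest probe was 0.04 ± 0.33. RPL6, also of the large subunit, stood between -1.39 and -0.40 on array 1 and between 0.29 and 0.91 on array 2 in all 13 probes. RPS3A stood between -1.63 and -0.76 on array 1 and between 0.35 and 1.16 on array 2 in all 8 probes. These 3 genes, which were chosen after their values were seen, were low in treated RNA on array 1 and high on array 2 in every probe.

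Treated RNA was red on array 1 and green on array 2, so after loess the brightest probes of these genes lay below probes of like brightness in Cy5 over Cy3 on both. In the raw signals Cy5 was still above Cy3, at 96412 against 37339 for RPL7 on array 1 and 84629 against 81217 on array 2. RPL5, with 18 probes, was below 0 on array 1 in all of them (-0.90 to -0.07), but on both sides of 0 on array 2 (-0.23 to 0.43). The SD between the means of genes was 0.49 and 0.36 on arrays 1 and 2 and 0.19 and 0.23 on arrays 3 and 4. The SD between probes of 1 gene was 0.30, 0.33, 0.28 and 0.28 on arrays 1 to 4. Genes therefore differed from each other most on arrays 1 and 2, and probes within a gene about equally on all arrays.

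**Figure D3:**
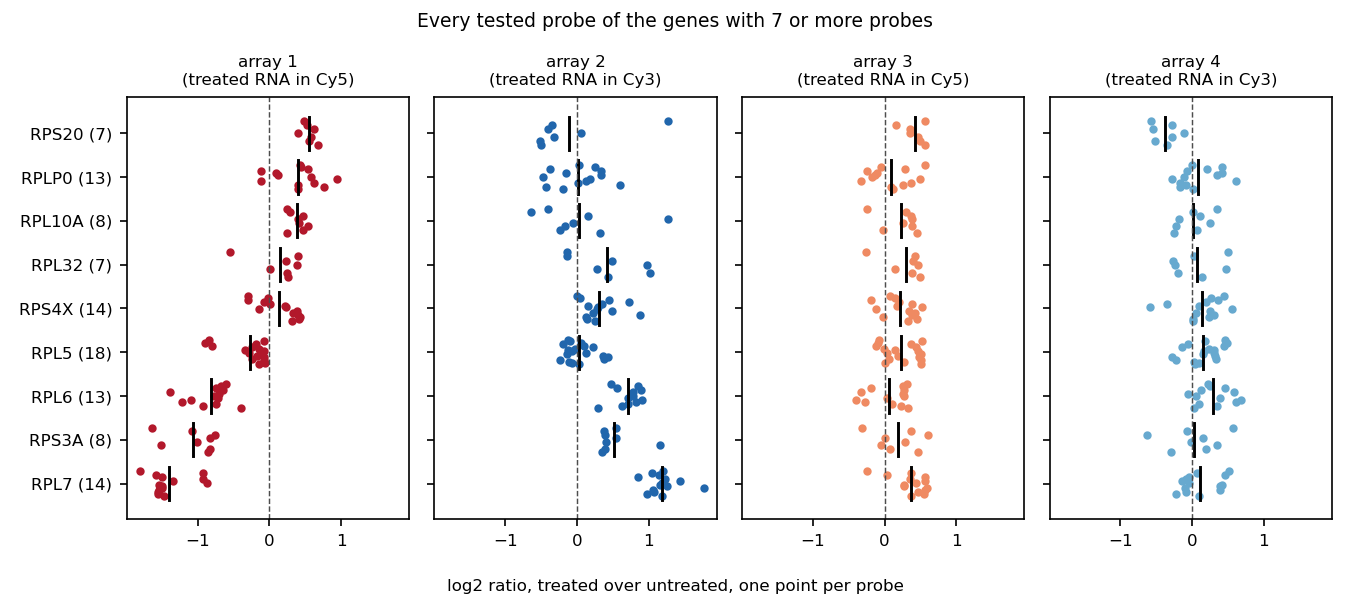
Log2 ratio of treated over untreated RNA (horizontal axis) on the 4 arrays for every tested probe of the 9 genes with 7 or more probes (number in brackets), with the mean of each gene as a black tick. All 14 RPL7 probes lie below 0 on array 1 and above 0 on array 2, and RPS20 lies above 0 on arrays 1 and 3 in all 7 probes.

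Over the 34 genes the pattern of Cy5 over Cy3 was most alike within 2 pairs of arrays. Between arrays 1 and 2, which have opposite dye orientation, Pearson's r was 0.68 across genes, and between arrays 3 and 4, also of opposite orientation, 0.79. The other pairs of opposite orientation had 0.28 (1 and 4) and -0.22 (2 and 3). Between arrays of the same orientation it was 0.16 (1 and 3) and -0.01 (2 and 4). Over all tested probes these values were, in the same order, 0.38, 0.27, 0.16, -0.06, 0.34 and -0.03. Taken as treated over untreated, r over the 34 genes was -0.68 between arrays 1 and 2 and -0.79 between arrays 3 and 4. These are descriptions across genes that share the same spots and dyes, and genes are not independent replicates. Which animal each array came from, and whether the pairs share anything else, was not tested.

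The like-named genes that the rule leaves out were also near 0. The 8 probes of RPL26L1, RPL36AL and RPL7L1 had ratios from -0.14 to 0.38. Ribosomal protein genes have many processed pseudogenes, and RPL and RPS mRNAs can be read by probes of close copies, so a ratio here may mix near-identical transcripts. In whole tissue, fewer cells of a type and less RNA per cell cannot be told apart.

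Other genes of the translation machinery, listed by function, are set beside the members. RACK1, a scaffold on the small subunit, stood at 0.47, 0.14, 0.19 and 0.14, above 0 on all 4 arrays, for a fitted ratio of 0.23 ± 0.17. Of 9 tested ribosome biogenesis genes 8 were higher and 1 lower (median 0.19), and 0 passed. NOP56, a core protein of the box C/D particles that methylate ribosomal RNA, had the smallest p of that list and stood at 0.50, 0.46, 0.51 and 0.24, for a fitted ratio of 0.43 ± 0.17. UTP3 (-0.27) and BYSL (0.23), both needed to process the small subunit's RNA, came next. The biogenesis list was lower on array 2 (-0.18) and higher on arrays 1, 3 and 4 (0.30, 0.08 and 0.36). By their brightest probes the members were also below 0 on array 2 alone (-0.09). Their highest median was on array 1 (0.31), and that of the biogenesis list on array 4.

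Genes of translation initiation lay on both sides of 0, as did non-ribosomal genes whose mRNAs carry the oligopyrimidine tract. Of 9 genes listed under translation initiation, repressors included, 4 were higher and 5 lower, with a median of -0.02. EIF4G1, the scaffold of the cap-binding complex, stood at -0.43 ± 0.20 and EIF4E2, a cap-binding repressor, at 0.22 ± 0.20. EIF4EBP2, a repressor that mTOR inactivates, stood at 0.13 ± 0.17. Of the 3 genes with the tract, TPT1 stood at -0.24, HNRNPA1 at -0.21 and EEF1A1, the main elongation factor, at 0.09. None passed the adjusted threshold.

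Of 7 genes of growth signalling to the ribosome, 3 were higher and 4 lower, and none passed. DDIT4, a stress-induced inhibitor of mTOR complex 1, was lower on all 4 arrays, at -1.14, -0.14, -1.28 and -0.37, for a fitted ratio of -0.73 ± 0.17. ATF4, the transcription factor of the integrated stress response, stood at -0.30 ± 0.18 and MYC, a driver of ribosome biogenesis, at 0.26 ± 0.18.

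Large complexes outside the cytosolic ribosome are a further comparison. Of 6 mitochondrial ribosomal protein genes 4 were higher and 2 lower, with a median of 0.09 and values from -0.30 for MRPL24 to 0.20 for MRPL58. MRPL52 stood at 0.14. Of 24 nuclear genes of the respiratory chain and ATP synthase 17 were higher and 7 lower, with a median of 0.10, led by COX5B (0.40), NDUFA4 (0.29) and ATP5G3 (0.30). Of 12 proteasome subunit genes 1 was higher and 11 lower, with a median of -0.14, and those with the smallest p were PSMB9 (-0.48) and PSMB10 (-0.39), both of the immunoproteasome, and PSMA4 (-0.34). No gene of the 3 lists passed. Genes used as references in expression work spread further than the ribosomal protein genes, from -0.40 for B2M to 0.51 for PPIA over 7 genes, with GAPDH at 0.41 ± 0.23 and a median of 0.12.

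**Figure D4:**
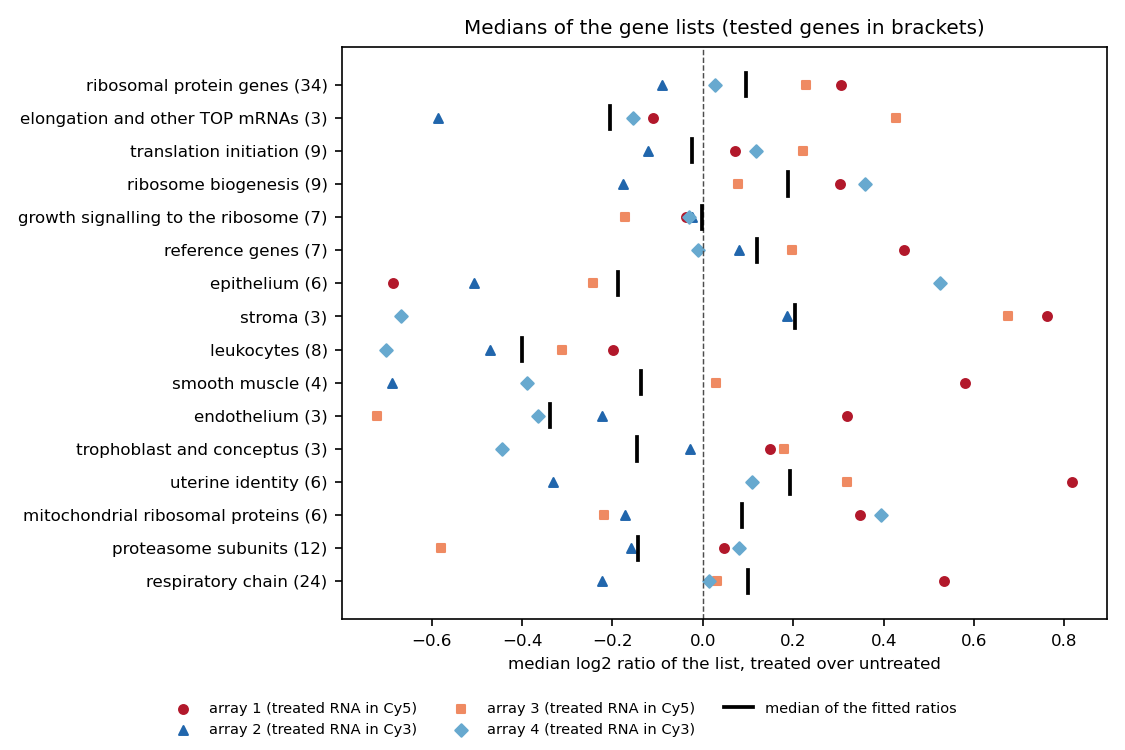
Median log2 ratio of treated over untreated RNA (horizontal axis) of the ribosomal protein genes and of the comparison and marker lists, with the number of tested genes in brackets. Coloured points are medians on each array and black ticks the median of the fitted ratios, which is 0.09 for the ribosomal protein genes and -0.40 for the leukocyte markers. For most lists, the ribosomal protein genes included, the 4 arrays lie on both sides of 0.

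Markers of the cell types in the explants had ratios of like or larger size, and their part in the members' ratios was not tested. Of 8 leukocyte markers 7 were lower, with a median of -0.40, below 0 on all 4 arrays (-0.20, -0.47, -0.31 and -0.70), led by CD86 (-0.68), LYZ (-0.68) and AIF1 (-0.59). All 3 stromal markers were higher (DCN 0.23, LUM 0.20 and COL1A2 0.17), with array medians of 0.76, 0.19, 0.67 and -0.67. Of 6 epithelial markers 2 were higher and 4 lower (median -0.19), with CLDN3 at -0.54, CLDN4 at -0.51 and CLDN7 at 0.31. Endothelial markers (CDH5 -0.39, PECAM1 -0.34, VWF -0.07) had a median of -0.34, and smooth muscle markers -0.14, with DES at -0.53, CNN1 at -0.21 and MYLK at 0.13. Of the conceptus markers TFAP2C stood at 1.14, IL1B2 at -0.42 and CYP19A1 at -0.15. Of the 6 uterine genes 4 were higher and 2 lower, with a median of 0.19. WT1 stood at 0.41, SPP1 at 0.77 and PGR at 0.32, and the 2 lower ones were STC1 (-0.21) and ACP5 (-0.14). No marker passed the adjusted threshold, and no red cell marker was found on the array.

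Across the alternative ways of processing the arrays, the median of the ribosomal protein genes stayed above that of all tested probes. Apart from median centring it lay between 0.07 and 0.15, with 24 to 29 of the 34 genes higher. Reading all arrays as treated in Cy5, which the labelling text shared by all samples would allow, gave 0.12, with 25 genes higher. That value is by construction the dye term given above.

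**Figure D5:**
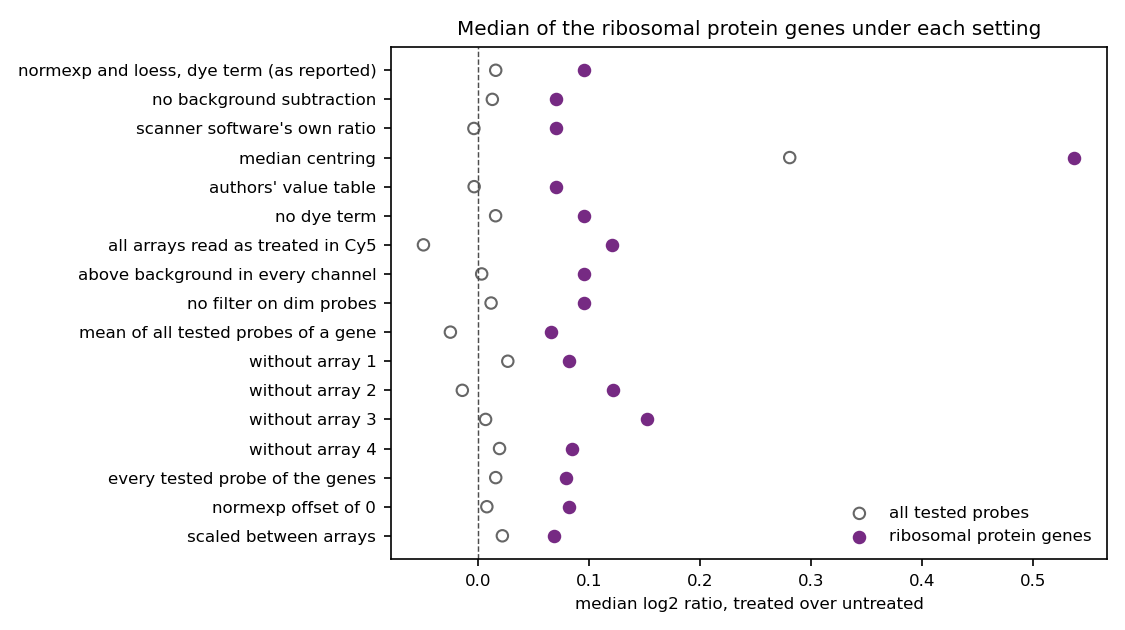
Median log2 ratio of treated over untreated RNA (horizontal axis) of the ribosomal protein genes (filled) and of all tested probes (open) under each setting. In the setting that averages probes, the open circle is the median over named genes. The ribosomal protein genes lie at 0.07 to 0.15 in every setting but median centring, where they lie at 0.54 and all tested probes at 0.28.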

How the data were processed

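Per the file headers, the deposited files are output of Agilent Feature Extraction 10.7.3.1 for array design 026440, with spot intensities of both dyes. They also hold the scanner software's corrected log10 ratio (red over green), per the file headers. The log2 ratios deposited by the authors in a value table run as treated over untreated and equal that log10 ratio for tested probes once it is converted to log2 and, for arrays 2 and 4, its sign is turned. The columns of this table have medians of 0.18, 0.29, 0.01 and 0.03.

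Median spot signals were corrected by normexp (offset 50) and loess within arrays, with controls and outlier spots at weight 0 (limma 3.58.1, R 4.3.3). Outlier spots were left out and the others averaged per probe. Tested probes were well above background, for treated or for untreated RNA, on 4 of 4 arrays, and were measured in both dye orientations. The fit (lmFit and eBayes of limma) had a treatment and a dye term (2 residual and 5.09 prior degrees of freedom), with two-sided p-values adjusted by Benjamini-Hochberg and a threshold of 0.05. The code was tested on simulated data. The number of arrays limits the precision. No sample was dropped or imputed, and 1 member probe lacked a value on 1 array.

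Probes were named through RefSeq accessions and the gene table of Sscrofa11.1, which named 6700 of 43603 probes. No coordinates are given, since the array files name no build. The members and the lists were chosen with earlier results of these data known. The rule for named genes took the 8 smallest p-values, the 4 highest and 4 lowest ratios, the stalk genes, RPSA, RPS6 and RPS27A where tested, the 5 genes whose probes differ most, and 3 genes per comparison list by smallest p. RPL5, RPL6, RPL7, RPL10, RPS23 and RPS28 were chosen after their values were seen. Alternatives were background correction, normalisation, offset, scaling, dye term and labels, filters, probe choice and leaving out each array. The 4 arrays lie on 1 slide. An item withheld for evaluation is not reported here.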

Additional observations from a re-analysis of the deposited data

Results flagged for a closer look

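RPL10 stood at 0.29 on array 1, apart from its other 3 arrays, which lay between 0.06 and 0.10. The gap was 0.832 of the whole range, above Dixon's 95% critical value for 4 samples. It was 1 of 35 items examined (the 34 genes and their median), and chance alone passes this value in about 1 of 20.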

How the results depend on the processing

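The number of ribosomal protein genes called was 0 in every setting. With median centring the members' median was 0.54 (0.52 for the large subunit, 0.54 for the small one), 18 of the 34 genes had an unadjusted limma p under 0.05, and 0 of all probes were called; 1080 of all tested probes then had such a p, against 496 before. With the mean of each gene's probes, 2 of 1637 genes were called, neither a member. Leaving out 1 array gave 0 to 17 called probes over the whole array, 17 without array 2 (14 of them higher), 0 of them members. Without 1 array the members' median was 0.08 to 0.15 and that of the small subunit 0.08 to 0.21, the highest of each without array 3.

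Over the named genes and settings, 196 values kept their sign and 25 did not. With median centring RPS3A stood at 0.36, RPL13A at 0.31, RPS26 at 0.34, RPL29 at 0.37 and RPL14 at 0.42. With the scanner software's ratio, as in the authors' table, RPL29 stood at 0.0025, RPL14 at 0.0018 and RPL10A at -0.050. Read as treated in Cy5 throughout, RPS10 stood at -0.077, RPL13A at 0.22 and RPL29 at 0.0087. With the mean of all probes RPS26 stood at 0.019 and RPL14 at 0.045. Leaving out 1 array, RPS3A ranged from -0.41 to 0.25, RPL11 from -0.045 to 0.56, RPS26 from -0.21 to 0.092, RPL29 from -0.16 to 0.067 and RPL14 from -0.13 to 0.088. The causes were not tested.

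The fit had 2 residual degrees of freedom, at most 36.2% of spots were above background in Cy3, and the dye orientation rests on the label of each array.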
